A study of Mus musculus with 6 samples.

Results

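Ribosome biogenesis factors are the proteins that transcribe, modify, cut and fold ribosomal RNA and assemble it with ribosomal proteins into the small and large subunits. A list of 40 such genes was read in mouse intestinal crypts, and 32 of them had a probe among the 12354 named genes of the array. The list was set by function, and earlier results of these data were known when it was chosen. Of the listed genes, Polr1a, Rrn3, Dkc1, Nolc1, Bysl, Utp18, Wdr43 and Wdr75 were not analysed here, since no probe was paired with their names. Crypts, the pits of the intestinal lining in which its cells divide, were laser-dissected from frozen sections of the middle of the small intestine of 6 adult C57BL/6 mice aged 120 days. The 3 LOI(+) mice had inherited from their mother a deletion that removes the H19 gene and its upstream region with the differentially methylated region, and the design states that this activates the normally silent maternal Igf2 allele (loss of imprinting). The 3 LOI(-) mice were wild type and came from the same kind of cross, H19+/- females with wild-type males. The deletion is present in every tissue of the LOI(+) mice and not in the crypt alone. Sex is labelled male for 4 mice and left blank for LOI(+) 2 and LOI(-) 3.

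One 2-colour array was hybridised per mouse, with crypt RNA in Cy3 and, in Cy5, Universal Mouse Reference RNA, which pools RNA of cultured cell lines of many tissues. A value is the log2 ratio of crypt over reference RNA after normalization. The normalization, loess, sets the typical ratio to 0 at each brightness. A value of 0 thus means that a gene stands where the typical gene of similar brightness on the array stands. Dyes were not swapped, so for a ratio over the reference a dye effect of a gene and a true difference cannot be told apart, and the spread of the reference pool itself is left out. In a difference between the groups a constant dye effect cancels. Between any pair of arrays the correlation of the ratios over genes lay from 0.932 to 0.975. The median Cy3 signal lay between 552 and 603 on the 6 arrays and the 95th percentile of negative control features between 439 and 449. All 32 members had Cy3 signal above that percentile on all 6 arrays. Of 15 measured crypt epithelium markers, 13 were higher in crypts than in the reference, among them Vil1 at 5.82, Cdh1 at 4.18 and Epcam at 3.13, while all 7 measured fibroblast markers were lower than in the reference. The deleted gene was not analysed here, so it gave no check of the group labels. These are bulk samples, in which fewer cells of a type and less RNA per cell cannot be told apart.

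Ribosome production starts in the nucleolus, where RNA polymerase I copies the ribosomal DNA into a long precursor. Box C/D and H/ACA ribonucleoproteins, each a guide RNA with a set of core proteins, then methylate or pseudouridylate chosen nucleotides. Large assemblies cut the precursor and build the 2 subunits. In the intestine this work is heaviest in the dividing crypt cells, and Myc, a transcription factor that binds the E-box CACGTG, is known to drive many of the genes.

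CACGTG reads the same on both strands, and it was searched for in RefSeq promoters (GRCm38.p6), short windows around each gene's start. It was present for 4 of the 28 measured members that had a promoter (14.3%), Mybbp1a, Imp4, Nop2 and Pes1, and for 7 of the 36 listed members that had one (19.4%). Of all genes with a promoter, 2187 of 27025 (8.09%) held it, and of the 88 other measured biogenesis genes with one, 18 (20.5%). The second motif searched on both strands, the longer palindrome known from human promoters as the CGCG element, was in 0 of the 28 and in 0.525% of all genes. A match describes the letters only, and no binding was measured. Imp4 and Nop2, a member of each subunit's assembly line, are shown to let the E-box be seen in its setting. The stretches run from 150 bases before the start to the base next to it, at chr1:34439679-34439828 (+ strand) and chr6:125131733-125131882 (+ strand), with the motif in capitals.
Imp4: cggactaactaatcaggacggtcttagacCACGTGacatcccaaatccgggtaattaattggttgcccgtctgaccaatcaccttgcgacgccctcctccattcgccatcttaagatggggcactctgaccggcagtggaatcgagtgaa
Nop2: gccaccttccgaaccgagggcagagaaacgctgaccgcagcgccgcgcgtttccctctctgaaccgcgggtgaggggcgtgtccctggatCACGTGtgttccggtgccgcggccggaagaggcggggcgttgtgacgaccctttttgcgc

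The first question was how these factors stood in crypts of both groups against the reference pool. RNA of 15 members was lower in crypts than in the reference (46.9%), RNA of 8 was higher (25.0%), and 9 did not pass an adjusted p of 0.05 (limma, Benjamini-Hochberg over all 37939 genes and unnamed probes). Over everything tested 32.6% was lower and 31.9% higher, and over the named genes 38.8% and 32.6%. The median log2 ratio of the members was -0.12, against -0.0013 over everything tested and -0.019 over the named genes. The balance moved with the scaling: with each array centred on its median in place of loess, 24 members were lower and 4 higher, against 41.4% and 42.2% of everything tested, and the members' median was -0.51. Of the 9 members of large subunit assembly 6 were lower and 0 higher, with a median of -0.60. No test was made between classes.

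**Figure D1:**
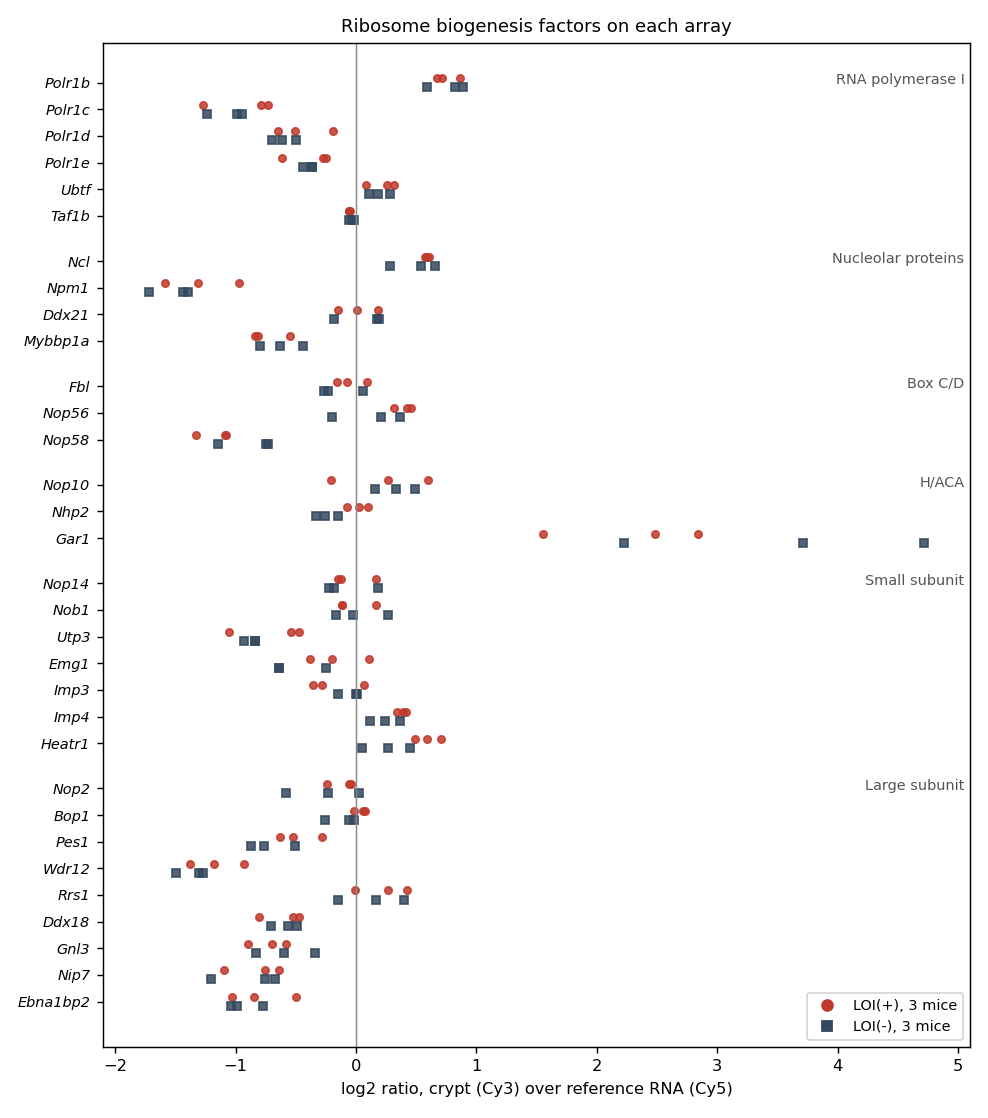
Log2 ratio of crypt over reference RNA for each of the 32 members on each array, ordered by role; circles are the 3 LOI(+) mice and squares the 3 LOI(-) mice. Gar1 stands alone on the right, from 1.55 to 4.72, and the other members lie between -1.72 and 0.89.

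The second question was whether the factors differed between LOI(+) and LOI(-) crypts. None of the 32 members passed the adjusted threshold, and 0 of the 37939 genes and unnamed probes did (0%), with a smallest adjusted p of 0.800 in limma. A linear model without moderation also called 0. At an unadjusted p under 0.05, 2 members were higher in LOI(+), Nhp2 and Heatr1 (6.25% of the members), and 0 were lower. Over everything tested 2335 reached that threshold (6.15%), 1491 higher (3.93%) and 844 lower (2.22%). The mean difference was above 0 for 21 of the 32 members (65.6%), against 51.3% of everything tested and 52.8% of the named genes. The median difference was 0.094, against 0.0030 over everything tested and 0.0068 over the named genes. Without LOI(-) 1 the members' median was -0.010, with 15 of 32 above 0.

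Of the members, 3 had all LOI(+) arrays above all LOI(-) arrays (9.38%), Nhp2, Heatr1 and Bop1, and 0 had the reverse order. Over everything tested 6.42% stood apart with LOI(+) higher and 4.98% with LOI(+) lower. The 95% interval of the difference spanned 0 for 30 of the 32 members, with a median half-width of 0.30. Leaving Gar1 aside, no interval went below -0.59 or above 0.72. The median standard error (SE) of a difference was 0.13 for the members and 0.077 over everything tested.

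**Figure D2:**
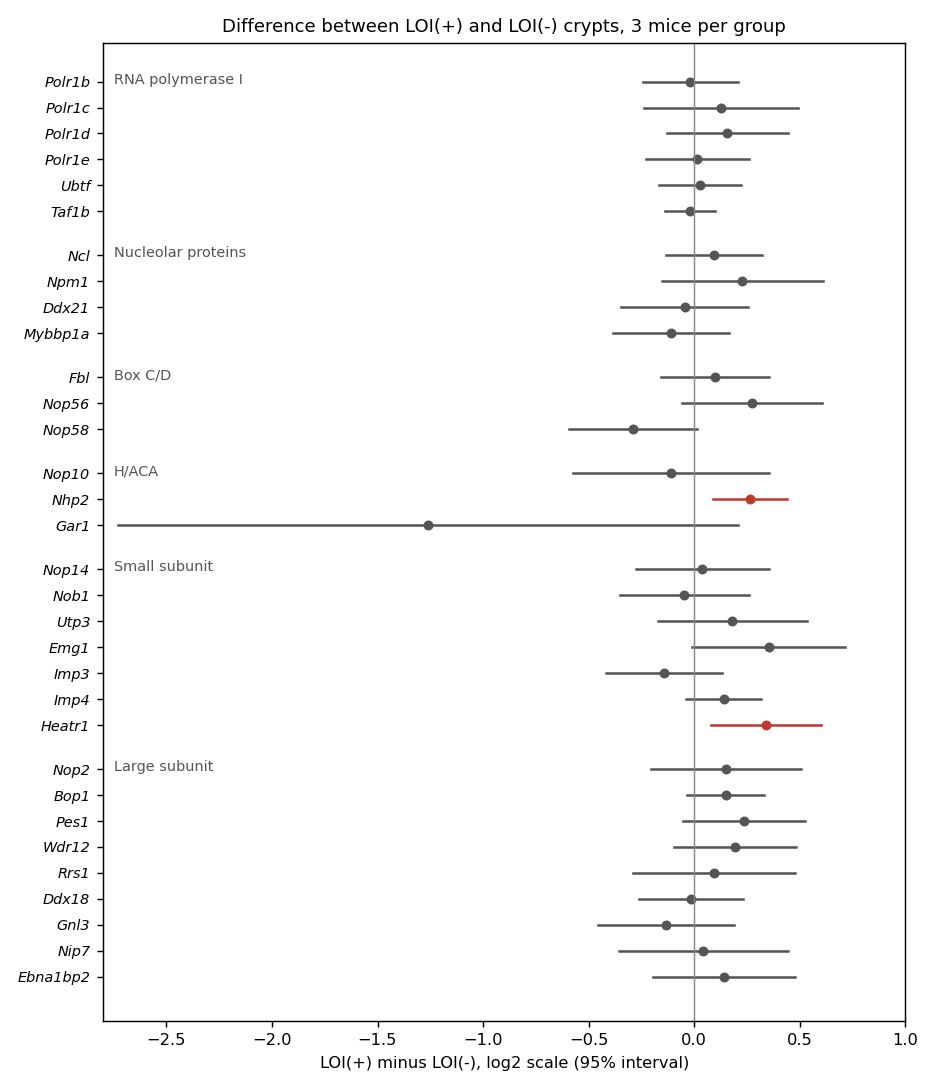
Mean difference LOI(+) minus LOI(-) on the log2 scale for each member, with its 95% interval from limma (3 mice per group). Intervals drawn in red, those of Nhp2 and Heatr1, lie above 0; the other 30 are grey and span it, and that of Gar1, at -1.26, is the widest.

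RNA polymerase I and its initiation factors make the precursor, and 6 of the 8 listed had a probe. Polr1d, a subunit that polymerases I and III share, had log2 ratios of -0.65, -0.19 and -0.50 in LOI(+) crypts, against -0.62, -0.69 and -0.50 in LOI(-) crypts. The groups overlapped, and the difference of 0.16 ± 0.12 (SE) had the smallest unadjusted p of the class, 0.238. Polr1c, its partner in the same shared pair, had -1.27, -0.73 and -0.79 in LOI(+), against -0.98, -1.24 and -0.94 in LOI(-). LOI(+) 1 was the lowest of the 6 for Polr1c, so its difference of 0.13 ± 0.15 (SE) lay within the spread of either group. Both genes were lower in crypts than in the reference, Polr1c by 1.99-fold and Polr1d by 1.44-fold, with adjusted p of 2.53e-05 and 2.18e-04 in limma. The second probe of Polr1c gave a ratio of -1.62 and a difference of 0.12.

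Polr1b, the second-largest subunit of polymerase I, stood at the other end of the class. It had 0.71, 0.67 and 0.86 in LOI(+) crypts, against 0.59, 0.89 and 0.82 in LOI(-) crypts, and was 1.69-fold higher than in the reference (adjusted p = 7.72e-06). Its values on the 6 arrays intermixed, with a difference of -0.019 ± 0.094 (SE) that turned to 0.030 with scale normalization and to 0.0025 without background correction. Polr1e, another polymerase I subunit, was lower than in the reference at -0.38. Ubtf, which binds the ribosomal DNA promoter, was higher at 0.20, but turned to -0.21 with median centring. Taf1b, a subunit of the factor that recruits the polymerase, did not pass at -0.047, and its 6 values lay close together, from -0.062 to -0.018. A second probe of Taf1b gave -0.995, but it was above the negative controls on 0 arrays. The differences of these 3 between the groups were 0.015, 0.026 and -0.020.

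The nucleolar proteins that bind the precursor or regulate its synthesis were Npm1, Ncl, Ddx21 and Mybbp1a. Npm1, nucleophosmin, an abundant scaffold of the nucleolus, had -1.58, -1.31 and -0.97 in LOI(+) crypts, against -1.44, -1.72 and -1.40 in LOI(-) crypts. Its highest value was LOI(+) 3 and its lowest LOI(-) 2, with overlap between the groups and a difference of 0.23 ± 0.16 (SE). The reference signal of this probe was saturated on all 6 arrays, so its ratio of -1.40 (adjusted p = 5.06e-06) understates how far RNA of Npm1 was higher in the reference. That ratio was -1.28 without background correction and with Feature Extraction's processed signals. The other 2 probes of Npm1, saturated on no array, gave ratios of -2.42 and -2.40 and differences of 0.18 and 0.19.

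Ncl, nucleolin, which binds the nascent precursor, had 0.60, 0.57 and 0.59 in LOI(+), against 0.29, 0.65 and 0.54 in LOI(-). The 3 LOI(+) values were nearly the same, and LOI(-) 1 was the one low array. Ncl was 1.45-fold higher than in the reference (adjusted p = 5.43e-05) with a group difference of 0.094 ± 0.096 (SE). Mybbp1a, a nucleolar protein that binds Myb, was lower than in the reference at -0.68. Ddx21, an RNA helicase, did not pass at 0.038, a value that turned to -0.27 with median centring. The differences of Mybbp1a and Ddx21 were -0.11 and -0.046.

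The box C/D proteins methylate the sugar of chosen nucleotides, with Fbl, fibrillarin, as the enzyme and Nop56 and Nop58 as its scaffold. Nop58 had -1.09, -1.32 and -1.08 in LOI(+) crypts, against -1.14, -0.73 and -0.75 in LOI(-) crypts. Only LOI(-) 1 kept its groups from standing apart, and the difference was -0.29 ± 0.13 (SE) with an unadjusted p of 0.0590 (adjusted p = 0.819). Nop56 had 0.32, 0.42 and 0.46 in LOI(+), against -0.20, 0.37 and 0.21 in LOI(-). Here LOI(-) 1 lay below all others, the difference was 0.27 ± 0.14 (SE, unadjusted p = 0.0938), and the second probe of Nop56 gave -0.14. Against the reference, Nop58 was 2.03-fold lower in crypts (adjusted p = 8.08e-06) and Nop56 1.20-fold higher (adjusted p = 0.0139), though Nop56 turned to -0.16 with median centring. The second probe of Nop56 gave a ratio of 0.027 ± 0.081 (SE). With the mean of its probes the ratio of Nop56 was 0.14 and did not pass (adjusted p = 0.112 in limma). Fbl did not pass, at -0.095, with a difference of 0.099 between the groups. The second probe of Fbl gave a lower ratio, -0.51 ± 0.046 (SE), and a difference of 0.13.

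The H/ACA proteins serve pseudouridylation and are also part of telomerase, and Nop10, Nhp2 and Gar1 of the 5 listed had a probe. Nhp2 (chr11:51619773-51623718), an RNA-binding core protein, had log2 ratios of 0.027, 0.098 and -0.078 in LOI(+) crypts, against -0.33, -0.15 and -0.26 in LOI(-) crypts. All 3 LOI(+) values lay above all 3 LOI(-) values, and RNA was 1.20-fold higher in LOI(+), a difference of 0.26 ± 0.074 (SE). This was the smallest unadjusted p of all members, 0.00928, with an adjusted p of 0.800 in limma. Its Cy3 signal was low, from 494 to 557 on the 6 arrays, and without background correction the difference was 0.083. Over both groups its ratio over the reference was -0.12 (adjusted p = 0.0281), a call that changed in 8 of 14 alternatives, with -0.017 without background correction and -0.018 with median centring. Nop10, a small core protein, had a ratio of 0.27 over the reference (adjusted p = 0.0429), a call that changed in 9 of 14 alternatives, among them 0.16 without background correction and -0.0038 with median centring, and a group difference of -0.11.

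Gar1 (chr3:129824912-129831407), the protein that completes the H/ACA particle, was the member of highest ratio and widest spread. It had 1.55, 2.48 and 2.84 in LOI(+) crypts, against 4.72, 2.22 and 3.71 in LOI(-) crypts, and its Cy3 signal ran from 2459 to 22610. LOI(-) 1 and LOI(-) 3 were the high arrays and LOI(+) 1 the lowest, while LOI(-) 2 fell among the LOI(+) mice. The difference was -1.26 ± 0.62 (SE, unadjusted p = 0.0822), with an interval from -2.73 to 0.21. This probe stood 7.56-fold over the reference (adjusted p = 1.43e-04), above 98.6% of the named genes. Its 60 bases, as the array design gives them, are shown because the second probe of Gar1 read differently.
Gar1: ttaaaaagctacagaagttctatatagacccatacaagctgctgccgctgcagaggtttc
The second probe had 0.42, 0.44 and 0.64 in LOI(+) crypts, against 0.12, 0.44 and 0.35 in LOI(-) crypts. Its ratio over the reference was 0.40 and its difference 0.20 ± 0.10 (SE), of the opposite sign. The 5 measured of 9 Paneth cell markers, genes of the secretory cells at the crypt base, had medians of 3.53, 3.80 and 4.11 in LOI(+), against 4.46, 3.86 and 4.31 in LOI(-). Lyz2, a lysozyme gene, stood at 4.01 over the reference, Ang4 at 4.04 and Mmp7, which cuts defensin precursors, at 5.26. Lyz1, the other lysozyme gene on the marker list, was not among those measured. Nupr1 was lower than in the reference, at -0.45. Of the 5 markers 4 were highest on LOI(-) 1, while Itln1 was lowest there, at 3.58. Itln1 was saturated in Cy3 on all 6 arrays. All 5 markers had a mean difference below 0, and none passed the adjusted threshold. The 2 highest and the lowest array were the same for the marker median as for the brighter Gar1 probe, and the markers' part in the result was not tested. No direction is given for Gar1, since its probes disagree.

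**Figure D3:**
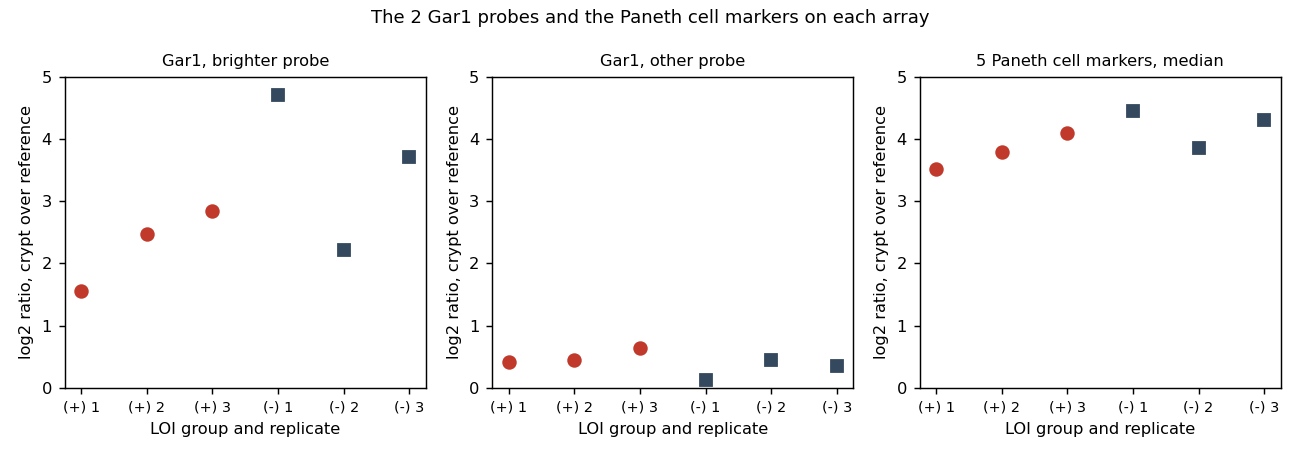
Log2 ratio of crypt over reference RNA on each array for the brighter Gar1 probe, for its other probe and for the median of 5 Paneth cell markers; circles are LOI(+) mice and squares LOI(-) mice. The brighter probe spans 1.55 to 4.72 with LOI(-) 1 highest, and the other probe stays between 0.12 and 0.64.

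Small subunit assembly had 7 measured members of 11 listed, and 5 of them had a mean difference above 0 (51.3% of everything tested did), with a class median of 0.14. Without LOI(-) 1 it was 4 of 7 with a median of 0.076. Heatr1 (chr13:12395375-12438893), a large scaffold protein of the early small subunit particle that also acts in polymerase I transcription, had 0.49, 0.70 and 0.59 in LOI(+) crypts, against 0.052, 0.45 and 0.27 in LOI(-) crypts. Its lowest LOI(+) value lay just above its highest LOI(-) value. The difference was 0.34 ± 0.11 (SE), with an unadjusted p of 0.0176 and an adjusted p of 0.800 in limma. Heatr1 was also 1.34-fold higher than in the reference (adjusted p = 4.03e-04), but with median centring its ratio was 0.011 and the call was lost (adjusted p = 0.859).

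Emg1, which methylates a modified base of the small subunit RNA, had -0.38, 0.11 and -0.20 in LOI(+), against -0.64, -0.64 and -0.25 in LOI(-). LOI(-) 1 and LOI(-) 2 were the lowest arrays and LOI(-) 3 fell among the LOI(+) mice, giving 0.35 ± 0.15 (SE, unadjusted p = 0.0557, adjusted p = 0.816). Utp3, a part of the small subunit processome, had the lowest ratio of the class, with -1.05, -0.47 and -0.54 in LOI(+) and -0.93, -0.84 and -0.84 in LOI(-). Its values for LOI(+) 1 lay below all others, and it was 1.72-fold lower than in the reference (adjusted p = 7.99e-05). Its difference was 0.18, and its second probe gave a difference of -0.098 and a ratio of -1.01. Imp3 and Imp4, which bind the U3 RNA that guides the first cuts, differed by -0.14 and 0.14. Imp4 was higher than in the reference at 0.31, and at 0.32 with median centring. The Cy3 signal of Imp4 was low, from 528 to 606. Without background correction its ratio was 0.12 (adjusted p = 9.09e-04 in limma) and its difference 0.065. Nop14, of the same early particle, and Nob1, the endonuclease that makes the final cut of the small subunit RNA, differed by 0.039 and -0.047, and neither passed against the reference.

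All 9 listed members of large subunit assembly were measured, and 7 had a mean difference above 0 (against 51.3% of everything tested), with a class median of 0.14. Without LOI(-) 1, the lowest array for 7 of the 9, it was 4 of 9 with a median of -0.012. Pes1, Bop1 and Wdr12 form 1 complex that is needed to process the large subunit RNA. Bop1 had 0.056, 0.074 and -0.018 in LOI(+) crypts, against -0.26, -0.058 and -0.019 in LOI(-) crypts. Its groups only just stood apart, with LOI(+) 3 and LOI(-) 3 nearly level, and the difference was 0.15 ± 0.078 (SE, unadjusted p = 0.0964). Pes1 had -0.63, -0.28 and -0.52 in LOI(+), against -0.87, -0.76 and -0.51 in LOI(-). LOI(+) 2 was the highest and LOI(-) 1 the lowest, and the difference was 0.24 ± 0.12 (SE, unadjusted p = 0.0976). Wdr12 had -1.38, -0.93 and -1.18 in LOI(+), against -1.49, -1.27 and -1.30 in LOI(-), again with LOI(+) 2 highest and LOI(-) 1 lowest and with a difference of 0.19 ± 0.12 (SE).

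The direction in this complex rested on the probe for 2 of its genes: the second probe of Pes1 gave -0.26, and the other 2 of Bop1 gave 0.0049 and -0.026. Wdr12 was 2.39-fold lower in crypts than in the reference (adjusted p = 2.05e-06), and Pes1 1.51-fold lower, while Bop1 did not pass. Among the probes used, Wdr12 had the lowest ratio of the class, -1.26. The second probes of Pes1 and Nip7 gave lower ratios than that, at -1.62 and -1.35. The other 2 probes of Bop1, with Cy3 signals of 460 or less, gave ratios of -0.35 and -0.20. Rrs1, known from yeast to bring the 5S RNA particle into the large subunit, had the highest ratio of the class, with -0.0053, 0.27 and 0.43 in LOI(+) and -0.15, 0.40 and 0.16 in LOI(-). Its 0.18 over the reference did not pass (adjusted p = 0.0838), and its groups intermixed. Ebna1bp2, Nip7, Gnl3 and Ddx18 were all lower than in the reference, at -0.86, -0.85, -0.66 and -0.59. Gnl3, nucleostemin, is a nucleolar GTP-binding protein known from stem and dividing cells, and Ddx18 is an RNA helicase. Nop2, which methylates the large subunit RNA, did not pass at -0.19. The differences of these 5 between the groups ran from -0.13 for Gnl3 to 0.15 for Nop2.

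The members' values followed single arrays. LOI(-) 1 was the lowest of the 6 arrays for 17 of the 32 members (53.1%), against 14.6% of everything tested and 16.5% of the named genes. It was the lowest for 7 of the 9 members of large subunit assembly and for 1 of the 6 of polymerase I transcription. LOI(+) 2 was the highest for 12 members (37.5%, against 22.1% of everything tested and 27.4% of the named genes). LOI(+) 3 and LOI(-) 2 were the highest for 9 members each (28.1%), against 13.8% and 15.9% of everything tested. With each gene centred on its mean over the arrays, the median of the members was -0.049, 0.088 and 0.11 in LOI(+), against -0.17, 0.026 and 0.037 in LOI(-). The LOI(+) arrays thus lay on both sides of LOI(-) 2 and LOI(-) 3, and LOI(-) 1 lay below all. Without LOI(+) 1, 7 members were higher at an unadjusted p under 0.05 (6.02% of everything tested was), and 5 without LOI(-) 3 (4.67%). It was 1 without LOI(+) 2, 2 without LOI(+) 3, 2 without LOI(-) 1 and 3 without LOI(-) 2. Of all tested, 884, 1459, 1200 and 923 were higher in those fits. Without LOI(+) 3, LOI(-) 1 or LOI(-) 2, 1 member was lower each time (797, 896 and 896 of all tested).

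The median of the 11 measured of 15 dividing cell markers on the same scale was 0.047, 0.16 and 0.24 in LOI(+), against -0.27, -0.25 and 0.044 in LOI(-). Of these markers 10 had a mean difference above 0 (51.3% of everything tested did) and 5 were higher at an unadjusted p under 0.05 (3.93% of everything tested), with none past the adjusted threshold. Those 5 were Mcm3, Mcm4, Mcm5, Mcm7 and Birc5, while Pcna was below 0, at -0.078. Mcm2 to Mcm7, all among the 11, are of 1 gene family. LOI(-) 2 was the lowest array for 5 of the 11 dividing cell markers and LOI(-) 1 for 4. Of the crypt epithelium markers 13 of 15 had a mean difference below 0, with a median of -0.11. All 6 measured goblet cell markers were below 0, with a median of -0.16, and 6 of 7 fibroblast markers were below 0 too. Of the 8 measured smooth muscle markers 7 were below 0, and of the 8 of villus enterocytes 6 were above it. At an unadjusted p under 0.05, 2 crypt epithelium, 2 goblet cell and 2 smooth muscle markers were lower, where 2.22% of everything tested was. At that threshold 0 fibroblast markers passed, and of the villus enterocyte markers 1 was lower and 1 higher. The part of any of these lists in the members' differences was not tested.

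**Figure D4:**
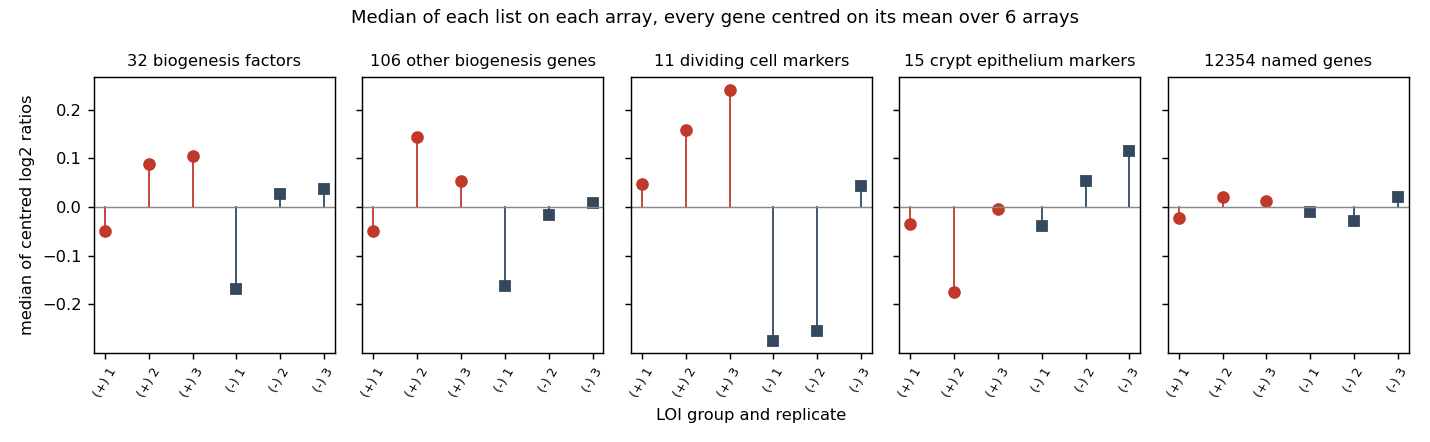
Median of the centred log2 ratios on each array for the 32 members, 106 other biogenesis genes, the 11 dividing cell and 15 crypt epithelium markers, and all named genes; every gene was centred on its mean over the 6 arrays. LOI(-) 1 is the lowest array for both biogenesis lists, at -0.17 and -0.16, and the named genes stay between -0.030 and 0.021.

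A wider list of 152 other ribosome biogenesis genes, of which 106 had a probe, was read for comparison. None passed the adjusted threshold between the groups, 13 were higher in LOI(+) at an unadjusted p under 0.05 and 0 were lower, where 3.93% and 2.22% of everything tested were. The mean difference was above 0 for 85 of the 106 (80.2%, against 51.3% of everything tested), with a median of 0.10. LOI(-) 1 was the lowest array for 57 of them (53.8%) and LOI(+) 2 the highest for 53 of them. Without LOI(-) 1, 64 of the 106 stayed above 0 with a median of 0.053, and without LOI(+) 2, 75 did with a median of 0.059. Of the 106, 8 had all LOI(+) arrays above all LOI(-) arrays and 0 had the reverse order, where 6.42% and 4.98% of everything tested did. The 6 genes of smallest p were among these 8, an order that picking by p favours. Tbl3, a part of the small subunit processome, had 0.14, 0.15 and 0.14 in LOI(+), against -0.17, -0.15 and -0.049 in LOI(-), a difference of 0.26 ± 0.056 (SE). Its unadjusted p was 0.00231 and its adjusted p 0.800 in limma. The other 5 were Noc4l (0.26), Tsr3 (0.38) and Sdad1 (0.49), of small subunit assembly, and Rrp1 (0.25) and Ftsj3 (0.41), of large subunit assembly.

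The Myc family stood as follows. Myc itself had 0.15, -0.33 and 0.68 in LOI(+) crypts, against -0.098, 0.86 and 0.30 in LOI(-) crypts, with wide overlap and a difference of -0.19 ± 0.31 (SE). Mycn, its relative, differed by 0.47 ± 0.25 (SE, unadjusted p = 0.0970), and Max, the partner that both need to bind the E-box, by -0.16 ± 0.11 (SE). None of these 3 differences passed the adjusted threshold. Against the reference, Mycn at 1.28 and Max at 0.84 were higher (adjusted p = 8.27e-05 and 1.21e-05 in limma), while Myc did not pass at 0.26.

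Several probes were present for 11 of the 32 members. The sign of the group difference was the same on all probes for 6 of these and differed for 5, Bop1, Gar1, Nop56, Pes1 and Utp3, while the sign of the ratio over the reference was the same for 10. Nob1 was the exception, at 0.0013 and -0.014.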

How the data were processed

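RNA of laser-dissected crypts of 6 mice, 3 in each group, was measured on 2-colour arrays. Per the file headers, the authors deposited spot intensity of both channels from Agilent Feature Extraction version A.7.5.1. Their deposited table of log10 values tracked the log10 ratio of Cy3 over Cy5 processed signal with the feature's mean log10 Cy5 added, with r of 0.998 or more across 41174 features and column medians from 2.90 to 2.91. Any test by the authors was not given in the sources used here. Of 41006 probes, 15421 (37.6%) were named through a RefSeq table of GRCm38.p6, for 12354 symbols, and a gene was read from its probe of highest mean Cy3 intensity.

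With limma 3.58.1 under R 4.3.3, mean signals went through normexp (offset 50) and loess within arrays, control features at weight 0 and outlier features left out. Values are log2 Cy3 over Cy5. Groups were compared with lmFit and eBayes over all 6 arrays, two-sided, with p-values adjusted (Benjamini-Hochberg, 0.05) over 37939 genes and unnamed probes, and the same fit gave the average of both groups against 0. Counts of arrays that stand apart or are lowest cover the 37648 with a value on every array. The fit was tested on simulated data. The members, the gene lists and the motifs were chosen with earlier results of these data known. Values on each array are given, per class, for the 2 members of smallest p between groups and those of highest and lowest ratio, and the 6 other biogenesis genes of smallest p, Myc, Mycn and Max are named. Image extraction ran with LOI(-) arrays first, so its order and the group cannot be told apart.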

Additional observations from a re-analysis of the deposited data

How the results depend on the processing

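Under the 16 alternatives, no gene or member was called between the groups. The members' median difference was 0.042 to 0.097 under other processing and ran from -0.010 (without LOI(-) 1) to 0.13 (without LOI(+) 1) when 1 array was left out. For 17 members the sign of the difference held in every alternative. For the other 15 the cause of the change was not tested. Without background correction Polr1b was at 0.0025 and Polr1e at -0.0018. With scale normalization Polr1b was at 0.030, Polr1e at -0.0043 and Nip7 at -0.0050, with median centring Polr1e at -0.030 and Taf1b at 0.012, and with the mean of all probes Pes1 at -0.012. Leaving out 1 array gave differences from -0.11 to 0.043 for Polr1b, -0.051 to 0.13 for Polr1e, -0.022 to 0.094 for Ubtf, -0.0092 to 0.17 for Ncl, -0.17 to 0.036 for Ddx21, -0.30 to 0.10 for Nop10, -0.064 to 0.17 for Nop14, -0.14 to 0.072 for Nob1, -0.012 to 0.29 for Nop2, -0.051 to 0.23 for Rrs1, -0.079 to 0.088 for Ddx18, -0.12 to 0.18 for Nip7 and -0.0048 to 0.26 for Ebna1bp2.

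Against the reference, median centring gave 24 members lower and 4 higher with a median of -0.51, and turned Ubtf to -0.21, Ddx21 to -0.27, Nop56 to -0.16, Nop10 to -0.0038 and Nob1 to -0.40. The mean of all probes gave a median of -0.25. Nob1, near 0, was also at -0.031 without background correction, -0.0062 with Feature Extraction's processed signals, -0.00072 with scale normalization and -0.0064 with the mean of probes. Of the 32 members, 14 had a call or sign against the reference that changed in 1 or more alternatives. Of those called, these were Nop10 (9 of 14), Nhp2 (8), Nop56 (3), Ubtf and Heatr1 (1 each). Leaving out 1 array gave -0.058 to 0.049 for Nob1 and -0.0053 to 0.098 for Ddx21.

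The labels state no pairing of the mice, and a check of the replicate numbers gave no clear one. In it r was -0.088, -0.25 and 0.35 for same-numbered arrays and from -0.39 to 0.45 for the others. These r are not the correlations of the ratios themselves, and the check cannot exclude a pairing. With the replicate number as a block 0 genes were called, and the members' median difference was 0.094. In that fit 3 members were higher at an unadjusted p under 0.05, as were 1710 of all 37933 tested. At that threshold median centring gave 4 members higher and 1 lower (1253 and 838 of all 37939 tested). The unmoderated model gave 1 member higher (1216 of all 37939). Of the 106 wider genes, 13 were higher at that threshold (1491 of all 37939). It was 3 of them in the unmoderated model and 6 to 25 with 1 array left out, where 884 to 2283 of all tested were. The wider list and the second Gar1 probe were added as alternatives after seeing the data. Signal over background limits Nhp2 and other dim members, and Cy5 saturation limits Npm1.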
